A study of Mus musculus with 9 samples.

Results

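The guanylate-binding proteins (GBPs) and the immunity-related GTPases (IRGs) are 2 families of interferon-inducible GTPases, and 10 of their genes were followed in splenic monocytes of mice: Gbp2, Gbp3, Gbp5, Gbp6, Gbp7, Gbp8, Irgm1, Irgm2, Igtp and Iigp1. The genes were chosen by symbol, and 11 of the 46072 rows of the expression tables carried these symbols. Gbp6 had 2 rows, of which the row with the higher mean level was kept, so that each gene is described by 1 row. All 10 genes were tested and had an adjusted p.

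The 9 libraries came from female C57BL/6 mice aged 8 to 10 weeks and fell into 3 groups of 3. In Con the mice were gavaged with water. In Van they were gavaged with vancomycin, an antibiotic against Gram-positive bacteria, at 2 mg per mouse per day for 6 days, and in VanLip they received the same vancomycin gavage and then L654, a lipid made by bacteria of the phylum Bacteroidota and a ligand of Toll-like receptor 2, by retro-orbital injection on days 7, 9 and 11. All mice were gavaged, and all were rested without antibiotic for 6 to 8 days before splenic monocytes were taken by magnetic negative selection, with no stimulation ex vivo. The rest is the range in the labels, whereas the study's own account gives 8 days. Each group was labelled as 3 biological replicates, and the study describes 3 mice in each group. That would give 1 mouse per library, although the study does not say so. Van against Con addressed the effect of vancomycin, VanLip against Van the effect of adding L654, and VanLip against Con the effect of both. For the sequenced groups the study names an injection in VanLip only, although its injection protocol gave control mice the vehicle. If Con and Van were not injected, the injection itself cannot be told apart from L654.

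GBPs are large GTPases of the dynamin superfamily. They assemble on the membranes of pathogen-containing vacuoles and on cytosolic bacteria and take part in activating the inflammasomes that sense them. IRGs are smaller, and among them Irgm1, Irgm2 and Igtp act as regulators that keep the effector members, such as Iigp1, inactive on the membranes of the cell itself. Both families are transcribed after interferon-gamma binds its receptor, through gamma-activated sites and through interferon-stimulated response elements, the latter bound by the transcription factor IRF1. In macrophages and monocytes the families are best known for defence against vacuolar pathogens such as Toxoplasma and Chlamydia.

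The sequences before the RefSeq starts of the genes are shown because they carry these interferon elements. The RefSeq promoter table (GRCm38.p6) had entries for 7 of the 10 genes, and none was used here for Gbp6, Gbp8 or Iigp1. The 250 bases before each annotated start were searched on both strands for GAAANNGAA, the core of an interferon-stimulated response element, and for TTCNNNGAA, the gamma-activated site. The capitals mark matches to either motif, and each sequence is given 5′ to 3′ on the strand of the gene. RefSeq starts can differ from those of GENCODE, and the stretches of Irgm1 and Irgm2, and most of that of Gbp2, lie inside the GENCODE gene bounds given further on.
Igtp, chr11:58199456-58199555, plus strand: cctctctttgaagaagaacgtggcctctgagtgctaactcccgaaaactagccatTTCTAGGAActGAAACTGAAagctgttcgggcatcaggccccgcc
Irgm2, chr11:58214877-58214976, plus strand: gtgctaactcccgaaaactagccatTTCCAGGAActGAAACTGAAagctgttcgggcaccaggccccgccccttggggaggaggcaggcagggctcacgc
Irgm1, chr11:48871429-48871458, minus strand: tgtttcaaGAAATAGAAACCGAAactgatt
Gbp7, chr3:142530226-142530325, plus strand: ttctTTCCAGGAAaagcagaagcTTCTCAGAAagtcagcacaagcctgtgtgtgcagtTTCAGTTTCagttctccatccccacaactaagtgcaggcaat
Gbp3, chr3:142559944-142560023, plus strand: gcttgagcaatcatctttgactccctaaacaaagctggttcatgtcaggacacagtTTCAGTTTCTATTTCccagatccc
Gbp2, chr3:142620595-142620624, plus strand: ctcttttagtTTCACTTTCactgtcttaag

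All 7 genes whose entries were used held GAAANNGAA, a motif found in 7.13% of the 32851 promoter entries of the same length. TTCNNNGAA was found in 4 of the 7 (Gbp5, Gbp7, Igtp and Irgm2), against 7.02% of all entries, and these 4 held both motifs, as 0.75% of all entries did. In Igtp and Irgm2 the 2 motifs stood in the same arrangement and were separated by 2 bases. The matches began 45 bases before the start of Igtp and 75 bases before that of Irgm2. In Gbp3 and in Irgm1 a pair of GAAANNGAA matches overlapped, on the reverse strand in Gbp3 and on the forward strand in Irgm1. Gbp3 had a second entry, with a start further downstream and no match. The matches describe letters in these windows and do not show that a factor was bound.

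**Figure D1:**
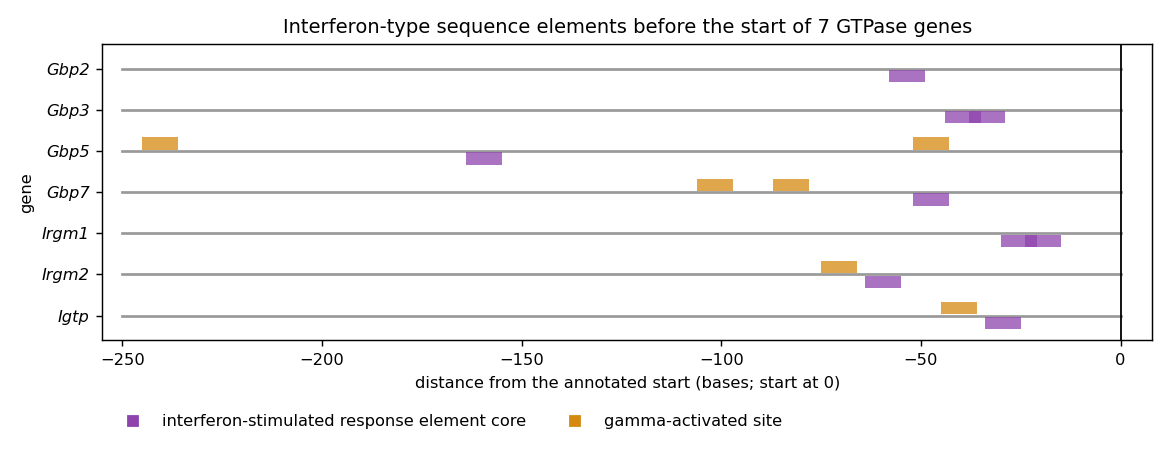
Position of matches to the interferon-stimulated response element core (purple, below each line) and to the gamma-activated site (orange, above each line) in the 250 bases before the annotated start of 7 genes; the horizontal axis is the distance from the start in bases. Every gene has a purple match, and Gbp5, Gbp7, Igtp and Irgm2 also have an orange one.

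In GENCODE M21 (GRCm38), the annotation in which the identifiers were looked up, the chromosome 3 cluster held Gbp5 (142493978 to 142522344), Gbp7 (142530342 to 142550149), Gbp3 (142560026 to 142573209) and Gbp2 (142620602 to 142638008), all on the plus strand. Chromosome 5 held Gbp8 (105014150 to 105139540) and Gbp6 (105270702 to 105293698) on the minus strand. On chromosome 11, Irgm1 lay at 48861968 to 48871683 on the minus strand, and Igtp (58199556 to 58207591) and Irgm2 (58199618 to 58222782) overlapped on the plus strand. All 10 are protein-coding genes, and the values refer to their exons. The counting may have split reads between near copies: 64.5% of the 100-base stretches of the Gbp6 transcripts also occurred in other genes, chiefly Gm43302, Gbp10 and Gbp11, and the Gbp6 values are uncertain for that reason. The share was 10.0% for Gbp7, 5.2% for Igtp, 4.4% for Gbp8, 3.0% for Irgm2 and at most 0.7% for the other genes.

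The libraries held 16151385 to 23018927 fragments in Con and Van and 42625868 to 46180176 in VanLip. The commonest low count pointed to reads of 100 bases in Con and Van and of 150 bases in VanLip, so depth and read length cannot be told apart from the addition of L654. The study's methods name the shorter read for every library, so the longer read is an inference from the counts, on which the fragment totals of VanLip also rest. Markers of monocytes summed to 10800 to 11400 FPKM (a level corrected for transcript length and for the mapped fragments of the library) in Con, 9870 to 11200 in Van and 10900 to 12300 in VanLip, and none of the 10 was at 0 in a group. In Van against Con their median log2 fold change was -0.01, with 5 of 10 below 0 and 1 called lower. At an unadjusted DESeq2 p under 0.05, 3 were lower and 2 higher. The one called, Ccr2, the chemokine receptor of classical monocytes, was lower in Van than in Con (-0.83, DESeq2 adjusted p = 0.00048, where edgeR called none of the 10) and higher in VanLip than in Van (1.04, DESeq2 adjusted p = 7.38e-07). In VanLip against Van, 3 of the 10 were called higher and 1 lower (2 by edgeR). The 7 erythroid markers summed to 99.8 to 203 FPKM in Con, 343 to 773 in Van and 279 to 1160 in VanLip, and 5 of 7 were called higher in Van (0 by edgeR) and 7 of 7 in VanLip (6 by edgeR) than in Con. The 7 B cell markers summed to 335 to 393 FPKM in Con, 251 to 276 in Van and 257 to 320 in VanLip, most of it from Ighm, which was called lower in Van (1 of 7 by DESeq2 and by edgeR) and in VanLip (0 by edgeR) than in Con. The 8 T cell markers summed to 14.0 to 19.0, 10.4 to 14.9 and 8.54 to 17.4, and the 7 NK cell markers to 0.714 to 0.98, 0.404 to 0.964 and 0.389 to 0.695. The 8 conventional dendritic cell markers summed to 134 to 153, 116 to 140 and 115 to 136 FPKM. Of these 8, 2 were called lower in Van against Con (1 by edgeR), 2 lower in VanLip against Con (0 by edgeR) and 2 higher in VanLip against Van (0 by edgeR), among them Clec9a, with a mean of 2.62 FPKM in Con, 1.39 in Van and 2.33 in VanLip. The 6 plasmacytoid dendritic cell markers summed to 73.3 to 84.1, 79.9 to 87.0 and 77.8 to 113 FPKM, with 1 of 6 called lower in Van against Con, where the median was -0.37, and 1 higher in VanLip against Van (0 by edgeR in both). The 8 red pulp macrophage markers summed to 1480 to 1810, 1740 to 2340 and 1470 to 1900, with 1 called higher in Van against Con (0 by edgeR) and 1 lower in VanLip against Van (1 by edgeR). The 8 neutrophil markers summed to 4.85 to 12.6, 2.15 to 11.2 and 3.45 to 5.86, with 1 called lower in each comparison with Con (0 by edgeR), and the 6 platelet markers to 11.8 to 23.8, 10.8 to 14.0 and 5.73 to 13.4. The part of these other cells in the GTPase values was not tested, and fewer cells of a type and less RNA per cell cannot be told apart in bulk samples.

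The GTPase genes ranged widely in level. In Con, the highest were Gbp2, at 56.7 ± 23.8 FPKM (SD, n = 3), and Irgm1, at 44.6 ± 7.34. Gbp3 followed at 31.4 ± 2.58, Igtp at 24.0 ± 6.78, Irgm2 at 19.4 ± 1.89, Gbp5 at 18.6 ± 7.93, Gbp8 at 11.1 ± 2.98 and Gbp7 at 8.56 ± 1.77. The lowest were Iigp1, at 4.75 ± 1.74, and Gbp6, at 2.98 ± 0.877. Between neighbours in this order, the libraries separated only Irgm1 from Gbp3 and Gbp7 from Iigp1. Irgm1 had the highest mean in Van (36.4 ± 2.54) and in VanLip (34.3 ± 7.39), where it could not be separated from Gbp2 (36.2 ± 8.17 and 34.3 ± 7.03), and Gbp6 was the lowest in all 3 groups.

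**Figure D2:**
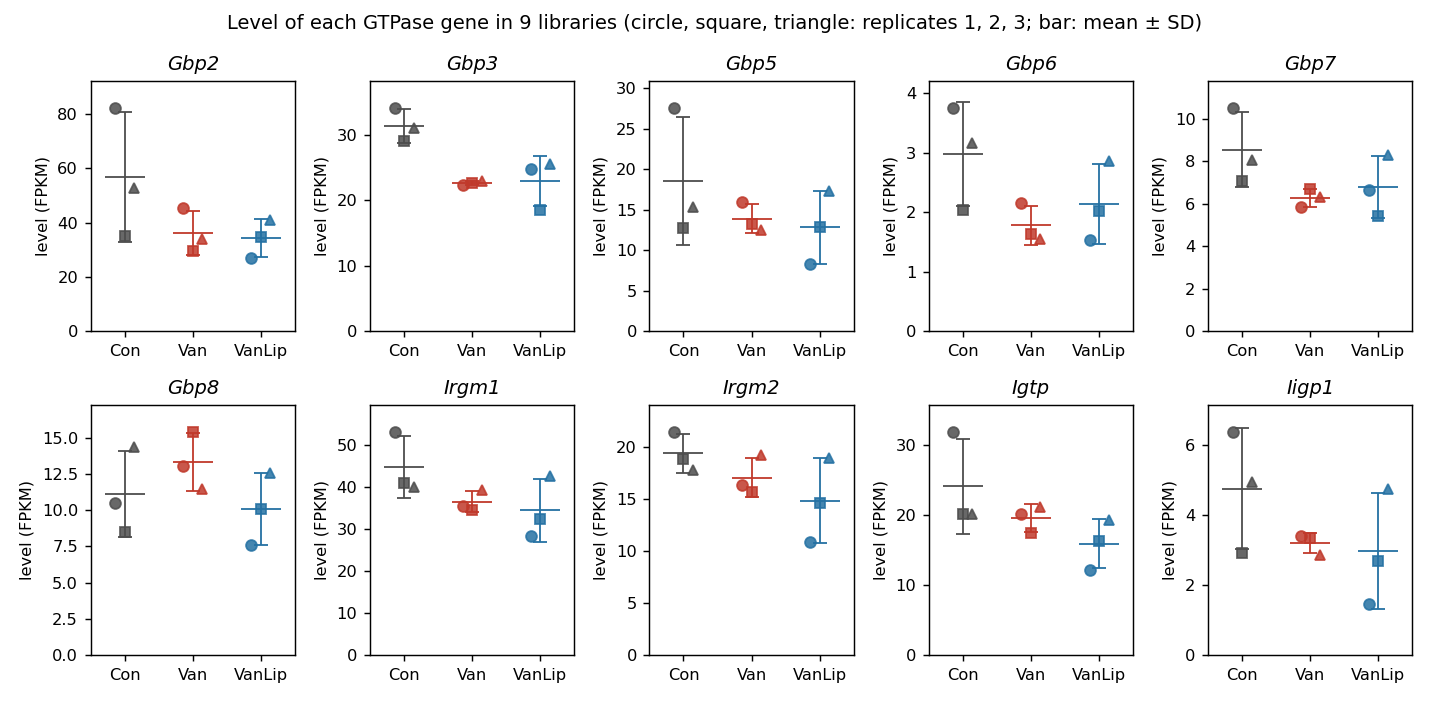
FPKM of each of the 10 genes (1 panel each, linear axis from 0) in Con, Van and VanLip; circles, squares and triangles are replicates 1, 2 and 3 and the bars are the mean ± SD of 3 libraries. Gbp3 is the gene whose Con libraries, 29.0 FPKM or more, lie above all 6 others, and Con replicate 1 is the highest Con library in 9 of the 10 panels.

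Gbp3, a GBP of the chromosome 3 cluster, was lower in Van than in Con. Its level was 34.1, 29.0 and 31.0 FPKM in the Con libraries, 22.4, 22.6 and 23.0 in the Van libraries and 24.8, 18.5 and 25.5 in the VanLip libraries. Every library of Van and of VanLip was below every library of Con, while Van and VanLip overlapped. The log2 fold change was -0.48 ± 0.12 (SE) for Van against Con (DESeq2 adjusted p = 0.00609) and -0.50 ± 0.12 for VanLip against Con (DESeq2 adjusted p = 0.0024), a fall of 28.2% and 29.2%. Both comparisons share the Con libraries. Between VanLip and Van the difference was -0.02, with a 95% interval from -0.26 to 0.22.

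Gbp3 was the only one of the 10 genes called in Van against Con, where a gene was called at a DESeq2 adjusted p of 0.05 or under. Of all genes with an adjusted p, 4.34% were called in either direction and 2.06% were called lower. By unadjusted p under 0.05, 3 of the 10 were lower (Gbp3, Gbp6 and Gbp7), against 5.49% of all genes, and 9 of 10 log2 fold changes were below 0, as were 9482 of 18516 over all genes. The median log2 fold change was -0.44 for the 10 genes and -0.01 for all genes, and that of the 10 genes was -0.21 without Con replicate 1. The groups did not overlap in normalized counts for 2 of 10 (Gbp3 and Gbp7), against 11.4% of all genes whose normalized counts averaged at least 50. Without Con replicate 1, or without Van replicate 2, none of the 10 was called, and the log2 fold change of Gbp3 was -0.40 (DESeq2 adjusted p = 0.0783) and -0.47 (DESeq2 adjusted p = 0.0581). By edgeR's quasi-likelihood test none of the 10 was called either, and Gbp3 had an edgeR adjusted p of 0.0812.

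The other GBPs of chromosome 3 had wider replicate spread. Gbp2, a prenylated GBP recruited to pathogen vacuoles, stood at 82.2, 35.1 and 52.8 FPKM in Con, 45.2, 29.4 and 33.9 in Van and 27.0, 34.7 and 41.0 in VanLip. Con replicate 1 was 2.34 times Con replicate 2, and the groups overlapped. The log2 fold change was -0.66 ± 0.36 (DESeq2 adjusted p = 0.391) in Van and -0.75 ± 0.36 (DESeq2 adjusted p = 0.231) in VanLip against Con, and without Con replicate 1 these were -0.28 and -0.37. Gbp5, a GBP linked to inflammasome assembly, stood at 27.6, 12.7 and 15.4 FPKM in Con, 16.0, 13.2 and 12.5 in Van and 8.25, 12.9 and 17.3 in VanLip. Again Con replicate 1 stood apart from the other Con libraries, and the log2 fold changes of -0.42 ± 0.40 and -0.62 ± 0.40 did not pass the test (DESeq2 adjusted p = 0.738 and 0.422). Without Con replicate 1 they were -0.01 and -0.20, and without Con replicate 2 they were -0.64 and -0.84. The VanLip difference of Gbp5 was -0.39 without VanLip replicate 1 and -0.89 without VanLip replicate 3. Gbp7, linked to the assembly of the phagocyte oxidase, stood at 10.5, 7.08 and 8.07 FPKM in Con, 5.85, 6.72 and 6.30 in Van and 6.66, 5.41 and 8.30 in VanLip. All Van libraries of Gbp7 lay below all Con libraries, but its log2 fold change of -0.45 ± 0.18 had a DESeq2 adjusted p of 0.151, and that of VanLip against Con was -0.36 ± 0.18 (DESeq2 adjusted p = 0.251). Without Con replicate 1 these were -0.27 and -0.18, and the VanLip difference was -0.21 without VanLip replicate 2 and -0.56 without VanLip replicate 3.

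On chromosome 5, neither GBP passed the test. Gbp6 stood at 3.75, 2.03 and 3.16 FPKM in Con, 2.16, 1.64 and 1.55 in Van and 1.53, 2.02 and 2.86 in VanLip. Its log2 fold change was -0.75 ± 0.29 in Van against Con (DESeq2 adjusted p = 0.127) and -0.59 ± 0.28 in VanLip against Con (DESeq2 adjusted p = 0.226). The former was -0.51 without Con replicate 1 and -0.95 without Con replicate 2 (DESeq2 adjusted p = 0.0372). The latter was -0.36 without Con replicate 1, -0.38 without VanLip replicate 1 and -0.97 without VanLip replicate 3 (DESeq2 adjusted p = 0.00427). The second Gbp6 row, named Gm43302 in GENCODE, was lower still in level, at 1.22 ± 0.411, 0.763 ± 0.172 and 0.672 ± 0.435 FPKM in Con, Van and VanLip. Gbp8 stood at 10.5, 8.50 and 14.3 FPKM in Con, 13.1, 15.4 and 11.5 in Van and 7.57, 10.1 and 12.6 in VanLip. It was the only gene of the 10 with a positive difference in Van against Con, 0.29 ± 0.20 (DESeq2 adjusted p = 0.586), which ran from 0.14 without Con replicate 2 and 0.19 without Van replicate 2 to 0.43 without Con replicate 3, and its groups overlapped in every comparison.

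Among the IRGs, Igtp was lower in VanLip than in Con. Its level was 31.9, 20.2 and 20.1 FPKM in Con, 20.1, 17.4 and 21.1 in Van and 12.2, 16.3 and 19.2 in VanLip. The VanLip libraries were all below the Con libraries, the nearest by less than 1 FPKM, while the Van libraries overlapped with both. The log2 fold change in VanLip against Con was -0.62 ± 0.20 (DESeq2 adjusted p = 0.033), and in Van against Con it was -0.30 ± 0.20 (DESeq2 adjusted p = 0.528), or -0.03 without Con replicate 1. Without Con replicate 1 the VanLip difference was -0.35 (DESeq2 adjusted p = 0.324), without VanLip replicate 1 it was -0.47 (DESeq2 adjusted p = 0.137), and without VanLip replicate 2 it was -0.63 (DESeq2 adjusted p = 0.103). Igtp overlaps Irgm2, which shares 8.0% of its exonic bases on the same strand.

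The other regulatory IRGs followed the same order of means without passing the test. Irgm1, needed in mice for resistance to mycobacteria, stood at 53.1, 40.8 and 40.0 FPKM in Con, 35.4, 34.5 and 39.3 in Van and 28.2, 32.2 and 42.5 in VanLip. In FPKM the 3 Van libraries lay just below the Con libraries, but in normalized counts they overlapped. The log2 fold change was -0.30 ± 0.16 in Van against Con (DESeq2 adjusted p = 0.352) and -0.44 ± 0.16 in VanLip against Con (DESeq2 adjusted p = 0.0705), and without Con replicate 1 these were -0.15 and -0.28. Irgm2 stood at 21.5, 18.8 and 17.8 FPKM in Con, 16.3, 15.7 and 19.2 in Van and 10.8, 14.6 and 19.0 in VanLip. Its groups overlapped, and its log2 fold changes against Con were -0.20 ± 0.17 in Van (DESeq2 adjusted p = 0.706) and -0.41 ± 0.17 in VanLip (DESeq2 adjusted p = 0.148), or -0.11 and -0.32 without Con replicate 1. Without VanLip replicate 1 the VanLip difference was -0.23, and without VanLip replicate 3 it was -0.63 (DESeq2 adjusted p = 0.000876).

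Iigp1, an effector IRG that loads onto the Toxoplasma vacuole, had the largest replicate spread of the 10. The gene lies at 60376027 to 60392634 on the plus strand of chromosome 18. It stood at 6.38, 2.93 and 4.95 FPKM in Con, 3.39, 3.33 and 2.86 in Van and 1.47, 2.69 and 4.75 in VanLip. VanLip replicate 3 was 3.24 times VanLip replicate 1, and the VanLip libraries spanned the whole range of Van. The log2 fold changes of -0.58 ± 0.46 in Van and -0.70 ± 0.46 in VanLip against Con did not pass the test (DESeq2 adjusted p = 0.639 and 0.432), and were -0.31 and -0.42 without Con replicate 1. Without VanLip replicate 1 the VanLip difference was -0.38, and without VanLip replicate 3 it was -1.21.

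In VanLip against Con, 2 of the 10 genes were called, both lower (Gbp3 and Igtp), against 6.67% of all genes called in either direction and 3.69% called lower. All 10 log2 fold changes were below 0, as were 8019 of 16552 over all genes, and the median was -0.55 against 0.01. Without Con replicate 1 the median of the 10 genes was -0.33. By unadjusted p under 0.05, 7 of 10 were lower, against 6.59% of all genes. The groups did not overlap for 2 of 10, against 11.3% of all genes. The count depended on single libraries. It was 0 without Con replicate 1, 1 (Gbp3) without VanLip replicate 1 or 2, and 7 without VanLip replicate 3, when Gbp6, Gbp7, Iigp1, Irgm1 and Irgm2 joined Gbp3 and Igtp. By edgeR's quasi-likelihood test none of the 10 was called, with an edgeR adjusted p of 0.0709 for Gbp3 and 0.183 for Igtp.

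**Figure D3:**
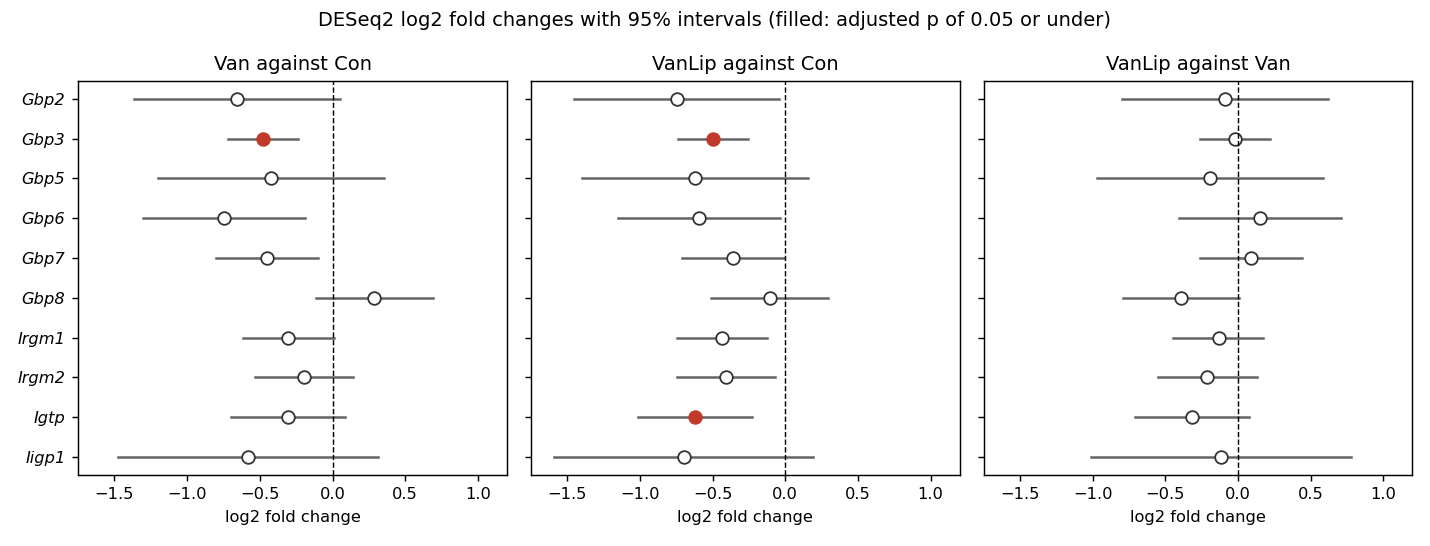
Log2 fold changes of the 10 genes in Van against Con, VanLip against Con and VanLip against Van (horizontal axis), with 95% intervals; filled points passed the DESeq2 adjusted p of 0.05. The filled points are Gbp3 in both comparisons with Con and Igtp in VanLip against Con, and Gbp8 is the only point right of 0 in Van against Con.

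Adding L654 after vancomycin moved none of the 10 genes past the test. In VanLip against Van 0 of 10 were called by DESeq2 and 0 by edgeR's quasi-likelihood test, and 0 had an unadjusted DESeq2 p under 0.05. Of all genes, 9.86% were called in either direction, 5.28% were called lower and 7.76% had an unadjusted p under 0.05 in the lower direction. The groups overlapped for all 10, while 14.4% of all genes had every VanLip library below every Van library. The median log2 fold change was -0.13 for the 10 genes and 0.01 for all genes, with 8 of 10 below 0. It rested on single libraries: without VanLip replicate 1 the median of the 10 genes was 0.004 with 5 of 10 below 0, without VanLip replicate 3 it was -0.37 with 10 of 10 below 0, and it was -0.05 with Van replicate 1 left out, -0.21 with Van replicate 2 left out and -0.08 with VanLip replicate 2 left out. The largest difference was that of Gbp8, -0.39 with a 95% interval from -0.79 to 0.01 (DESeq2 adjusted p = 0.252), followed by Igtp, -0.32 (interval -0.71 to 0.07), and Irgm2, -0.21 (interval -0.55 to 0.13). Gbp6 (0.15) and Gbp7 (0.09) were above 0. The widest interval was that of Iigp1, from -1.01 to 0.78. Without VanLip replicate 3, Gbp8 (-0.63, DESeq2 adjusted p = 0.0157) and Irgm2 (-0.43, DESeq2 adjusted p = 0.0382) were called lower, and without VanLip replicate 1 they were at -0.20 and -0.03. Igtp was at -0.48 without VanLip replicate 3 and at -0.17 without VanLip replicate 1.

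The 10 genes also varied together among libraries of the same group. Con replicate 1 was the highest Con library for 9 of the 10 genes and Con replicate 2 the lowest for 7. VanLip replicate 3 was the highest VanLip library for all 10, and VanLip replicate 1 the lowest for 8. The Van libraries had no such order, and each was the highest for 2 to 4 of the genes. The median deviation from the group mean over the 10 genes was 0.38 on the log2 scale for Con replicate 1, -0.37 for VanLip replicate 1 and 0.37 for VanLip replicate 3.

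With the group means removed, the median Pearson r over the 45 pairs of genes was 0.707 across the 9 libraries, with a range from 0.095 to 0.941. These are descriptions over points that share libraries, and the 10 genes are therefore not 10 separate measurements of a group. The closest pairs were Gbp6 with Iigp1 (0.941), Irgm1 with Igtp (0.934) and Gbp5 with Gbp6 (0.93). Gbp3 stood apart, with a median r of 0.316 to the other genes and its closest partner in Gbp7 (0.881). It also had the smallest spread within groups, an SD of 0.167 on the log2 scale, against 0.59 for Iigp1, 0.478 for Gbp5 and 0.442 for Gbp2. The median over all genes whose normalized counts averaged at least 50 was 0.144.

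**Figure D4:**
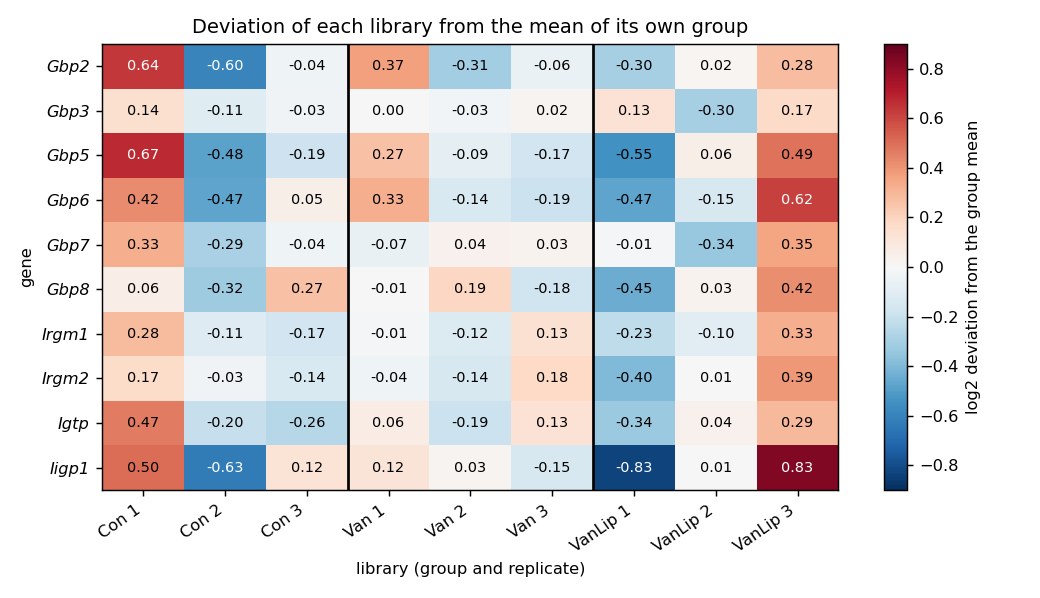
Deviation of each library from its own group's mean, as log2 normalized counts (red higher, blue lower), with the 10 genes in rows and the 9 libraries in columns. VanLip replicate 3 is red for all 10 genes and Con replicate 1 for all 10, with values up to 0.83 (Iigp1 in VanLip replicate 3).

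The further members of both families had medians below 0 in each comparison. Of 18 other GBP and IRG genes, 17 had an adjusted p in Van against Con and 2 were called lower there. Gbp2b, a close relative of Gbp2, was at 0.867, 0.568 and 0.785 FPKM in Con and 0.355, 0.367 and 0.308 in Van, a log2 fold change of -1.11 ± 0.30 (DESeq2 adjusted p = 0.0111). Gbp9 changed by -0.48 ± 0.15 (DESeq2 adjusted p = 0.0446). None of the 18 was called in VanLip against Con, although 10 had an unadjusted p under 0.05 in the lower direction, and Gm12185 was called lower in VanLip against Van (-0.72 ± 0.23, DESeq2 adjusted p = 0.0258). By edgeR's quasi-likelihood test none of the 18 was called in any comparison. The medians were -0.29, -0.51 and -0.12 in Van against Con, VanLip against Con and VanLip against Van. The same libraries stood apart as for the 10 genes: the summed level of the 18 was 252.5, 186 and 188 FPKM in Con and 130, 158 and 204 in VanLip.

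Among the large inducible GTPases and atlastins, 6 of 7 listed genes were detected. Mx1, an antiviral dynamin-like GTPase, was lower in Van than in Con (-0.41 ± 0.13, DESeq2 adjusted p = 0.0403), and was not called in VanLip against Con (-0.05 ± 0.13). By edgeR none of this list was called in any comparison. Atl2, an atlastin that fuses endoplasmic reticulum membranes, was lower in VanLip than in Van (-0.38 ± 0.10, DESeq2 adjusted p = 0.00215).

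Upstream of the GTPases, Ifng, which encodes interferon-gamma, was listed at 0 in all 9 libraries, and of the 9 genes for interferons and the cytokines that induce them, 6 were detected and none was called by DESeq2 or edgeR or had an unadjusted p under 0.05 in any comparison. Of the 7 receptor and kinase genes, Ifngr1, the ligand-binding chain of the interferon-gamma receptor, was higher in VanLip than in Con (0.19 ± 0.05, DESeq2 adjusted p = 0.0114), at 376, 377 and 359 FPKM against 310, 317 and 335, and edgeR called none of the 7. Ifngr2, the second chain, differed by -0.10 ± 0.09 (DESeq2 adjusted p = 0.643).

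Irf1 is a transcription factor that drives both families. Irf1 stood at 218, 121 and 130 FPKM in Con, 140, 119 and 113 in Van and 129, 126 and 114 in VanLip, and did not pass the test in any comparison. Its log2 fold changes against Con were -0.34 in Van and -0.38 in VanLip, but -0.0049 and -0.05 without Con replicate 1. VanLip replicate 1, low for most of the GTPases, was not low for Irf1, and whether Irf1 set their level was not tested. Of the 10 transcription factors, 3 were called lower in VanLip against Con (1 of the 10 by edgeR) and none in Van against Con, where 1 had an unadjusted p under 0.05 and edgeR called 0. The 3 were Stat2 (-0.49 ± 0.13, DESeq2 adjusted p = 0.00545), which acts in type I interferon signalling, Nlrc5 (-0.53 ± 0.18, DESeq2 adjusted p = 0.0423), the class I MHC transactivator, and Ciita (-1.06 ± 0.20, DESeq2 adjusted p = 9.83e-06), the class II MHC transactivator. Ciita was also lower in VanLip than in Van (-0.71 ± 0.20, DESeq2 adjusted p = 0.00675), whereas Irf8, a factor of monocyte development, was higher (0.42 ± 0.10, DESeq2 adjusted p = 0.000604), and edgeR called 1 of the 10 in that comparison. Among the 7 feedback inhibitors, Socs3, an inhibitor of cytokine receptor kinases, was higher in VanLip than in Con (0.53 ± 0.12, DESeq2 adjusted p = 0.000513) and than in Van (0.54 ± 0.12, DESeq2 adjusted p = 0.000235).

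Of 19 other genes induced by interferon-gamma, 4 were called lower in VanLip against Con (2 of the 19 by edgeR), and all 4 encode proteins of class II antigen presentation. They were H2-Ab1 (-0.82 ± 0.17, DESeq2 adjusted p = 0.000131), H2-Aa (-0.87 ± 0.18, DESeq2 adjusted p = 0.000166), H2-Eb1 (-0.68 ± 0.17, DESeq2 adjusted p = 0.00411) and Cd74, the invariant chain (-0.84 ± 0.27, DESeq2 adjusted p = 0.0323). None of the 19 was called in Van against Con by DESeq2 or edgeR, where 5 had an unadjusted p under 0.05, all lower, and H2-Ab1 was called lower in VanLip against Van (-0.49 ± 0.17, DESeq2 adjusted p = 0.0439), where edgeR called 0 of the 19. Class II genes are also expressed by B cells and dendritic cells, whose summed markers are given above, and the part of those cells was not tested.

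Of the 10 partners of GBPs in the inflammasome and in vacuole attack, 3 were called lower in Van against Con (2 of the 10 by edgeR). Aim2, a cytosolic DNA sensor whose activation by some bacteria needs GBPs, fell by 0.44 on the log2 scale (DESeq2 adjusted p = 2.68e-06), Rabgap1l, a Rab GTPase-activating protein, by 0.61 (DESeq2 adjusted p = 0.000918) and Casp1, the inflammasome protease, by 0.31 (DESeq2 adjusted p = 0.00357). Casp1 was also lower in VanLip than in Con (-0.29 ± 0.08, DESeq2 adjusted p = 0.00521), where edgeR called 0 of the 10. In VanLip against Van, 3 of the 10 were called higher and 1 lower (1 of the 10 by edgeR). Aim2 (0.44 ± 0.08, DESeq2 adjusted p = 4.69e-07), Rabgap1l (0.42 ± 0.14, DESeq2 adjusted p = 0.0294) and Pycard, the inflammasome adaptor (0.31 ± 0.10, DESeq2 adjusted p = 0.0258), were higher. None of the 10 ATG8 conjugation genes that guide the GTPases to vacuoles was called in any comparison by DESeq2 or edgeR, and 2, 2 and 0 had an unadjusted DESeq2 p under 0.05 in Van against Con, VanLip against Con and VanLip against Van, all higher.

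**Figure D5:**
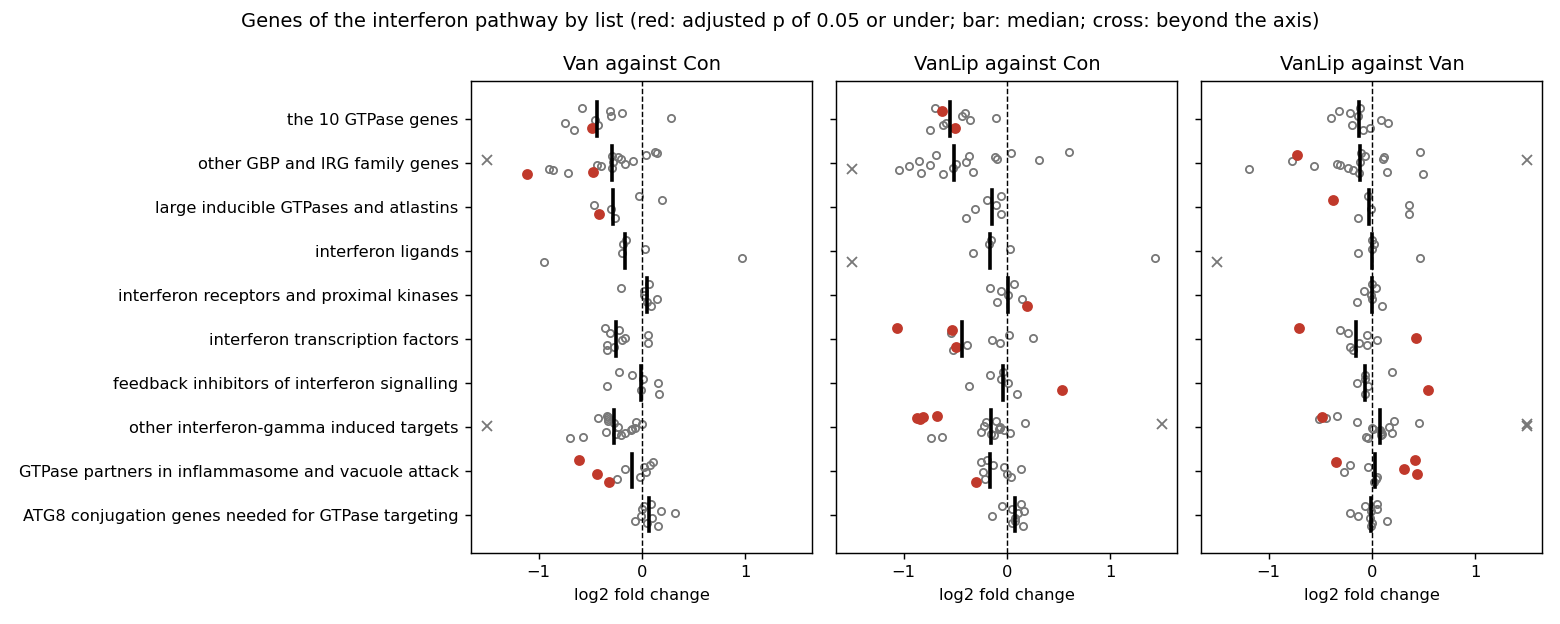
Log2 fold changes of the 10 genes and of 9 lists of related genes (rows) in the 3 comparisons; each point is a gene, red points passed the DESeq2 adjusted p of 0.05, bars are list medians and crosses are genes beyond 1.5 on either side, drawn at the edge. The red points left of 0 in VanLip against Con include Ciita (-1.06) and H2-Aa (-0.87), and the ATG8 row has none.

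The genes most alike to the 10 over the libraries were sought by the Pearson r between each gene and the mean scaled profile of the 10, over 9 libraries and 11710 genes with a mean FPKM of at least 1. Among the most alike were Uba7 (0.979), Mllt3 (0.963), Gm8995 (0.962), Slc4a7 (0.954), Nab2 (0.952), Slamf8 (0.948), Casp4 (0.941), Hivep1 (0.932) and Tgtp2 (0.93). Uba7, which activates ISG15, stood at 38.2, 31.0 and 35.5 FPKM in Con, 31.7, 30.9 and 32.1 in Van and 28.5, 30.2 and 33.8 in VanLip. Tgtp2, an effector IRG, stood at 25.6, 14.7 and 15.2 FPKM in Con, 16.5, 11.6 and 13.2 in Van and 5.96, 11.3 and 16.6 in VanLip. Both had their highest library in Con replicate 1 and their lowest in VanLip replicate 1, as had the profile by which they were picked. The 10 genes are themselves part of the profile, which raises their r. Among them, Iigp1 was the most alike to the profile (0.969) and Gbp8 the least (0.39).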

How the data were processed

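Poly(A) RNA of splenic monocytes was sequenced from 9 libraries (Con, Van and VanLip, 3 each). Per the labels and the study's methods, the authors aligned reads to GRCm38 with HISAT2 2.2.1, sorted them with SAMtools 1.9, assembled and quantified with StringTie 2.1.3 and tested with DESeq2 1.38.3. The authors deposited a table of FPKM values and a table of expected counts per gene, which tximport derived from StringTie coverage. The commonest low count, 1.33 in Con and Van and 2 in VanLip, is what reads of 100 and 150 bases give under the tximport default of 75 bases.

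Here whole numbers were made of the expected counts by rounding, and DESeq2 1.42.0 was run on them in R 4.3.3 (Wald test, median-of-ratios size factors, group as the only term, all 9 libraries in 1 fit, Benjamini-Hochberg adjustment over all genes). Calls were made at an adjusted p up to 0.05. Errors are SE for fold changes and SD for levels. FPKM served for levels and for comparing genes. The DESeq2 p-values set each group difference against the spread between these samples, with 1 estimate of spread per gene shared by the groups. Sequences came from the RefSeq promoter table and gene positions from GENCODE M21. Of the 26108 rows above 0 in at least 1 library, 25836 had a GENCODE M21 identifier. No 2 libraries of the same group agreed within counting noise.

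The alternatives were edgeR 4.0.16 (quasi-likelihood test), TMM scaling, a minimum of 10 counts in 3 libraries, only the 2 groups compared, the replicate number as a block, no independent filtering, counts converted to fragments or thinned to the shallowest library, limma 3.58.1 on log2(FPKM + 1) or log2(FPKM + 0.1), or at a mean FPKM of at least 1, and each library left out in turn. The 10 genes and all lists were chosen with earlier results of these data known. The text names the 10 genes, Ifng, Ifngr1, Ifngr2 and Irf1, up to 4 called genes per list and comparison, and the 10 genes most alike to the profile. Some genes that this rule would name are not reported here. Ccr2 and Clec9a were named after their values were seen.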

Additional observations from a re-analysis of the deposited data

How the results depend on the processing

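The direction of the log2 fold changes of Gbp3 and Igtp against Con held under every alternative run, but the calls did not. In Van against Con, where 1 gene was called (Gbp3), the count was 0 by edgeR and 0 in each of the 3 limma settings, 3 with only the 2 groups compared, and 0 to 3 when 1 library was left out. In VanLip against Con, where 2 were called, it was 0 by edgeR and in each limma setting, 1 with only the 2 groups compared, 1 with the replicate block, and 0 to 7 when 1 library was left out. In VanLip against Van it was 0 under every alternative but 0 to 2 when 1 library was left out. The cause of these shifts was not tested. The replicate numbers did not pair the libraries (correlations of same-numbered deviations from -0.065 to 0.123), and apart from Igtp (DESeq2 adjusted p = 0.053) the replicate block changed no call among the 10 genes. Over all genes, edgeR called 189, 289 and 727 in the 3 comparisons, where DESeq2 called 803, 1104 and 1777. No scaling moved the median of all genes by over 0.1 on the log2 scale.

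The sign turned in 11 cases, none of them called. For Gbp8 in VanLip against Con the values ran from -0.339 to 0.0875 when 1 library was left out. In VanLip against Van they ran from -0.24 to 0.12 for Gbp2, from -0.10 to 0.11 for Gbp3, from -0.47 to 0.0345 for Gbp5, from -0.22 to 0.36 for Gbp6, from -0.10 to 0.25 for Gbp7 and from -0.63 to 0.20 for Iigp1, and Gbp3 was at 0.0047 by edgeR and with TMM library sizes. Of the other values under an alternative, 555 kept direction and side of the threshold, 20 lost the call and 14 gained one. With 3 libraries per group, a difference such as that of Iigp1 was not resolved at an SE of 0.46.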
